A study of Mus musculus with 6 samples.

Results

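The renin-angiotensin system genes described here are Agt, Ren1, Ace, Agtr1a, Agtr1b, Mas1, Atp6ap2, Enpep and Mme, 9 of the 22183 genes measured in mouse kidney. They were taken by symbol, whatever their values. Of the 9, 8 had enough reads to be tested, and Agtr1b did not. Kidney messenger RNA was sequenced from 3 libraries of mice given a plasmid carrying Wnt1, labelled as overexpressing Wnt1, and from 3 libraries of mice given the empty vector pcDNA3, labelled control. Wnt1 is a secreted protein that signals through beta-catenin, and the study's title concerns acute kidney injury, chronic kidney disease, Atf3 and mitophagy. The sources used here do not give the strain, sex, age, any injury procedure or the time after plasmid delivery, and the labels put all 6 libraries in 1 batch. Nothing says that the libraries came from separate animals, so the p-values reflect the spread among these libraries alone, which may be partly technical.

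In the renin-angiotensin system, renin cuts angiotensinogen to angiotensin I, and angiotensin-converting enzyme turns that into angiotensin II, which raises blood pressure and sodium retention through the AT1 receptor. Other membrane peptidases trim these peptides: some break angiotensin II down, and others form angiotensin-(1-7), a ligand of the Mas receptor. The kidney holds the whole system, with renin in juxtaglomerular cells and converting enzyme and aminopeptidases on the proximal tubule brush border, and beta-catenin has been described as a regulator of several of its genes in kidney.

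In kidneys given the Wnt1 plasmid, Ace, Agtr1a and Mas1 fell, and no member rose. Ace, the converting enzyme, was 4.79-fold lower, Mas1, the Mas receptor, 3.86-fold lower and Agtr1a, the main AT1 receptor of the mouse kidney, 1.94-fold lower. Transcripts of the substrate Agt and of the peptidases Enpep and Mme differed by less than their standard errors, and Ren1 was lower by an amount that missed the threshold. Levels are given as CPM (a gene's reads scaled to a common library size), the library sizes adjusted by TMM factors, which correct for composition. A gene was called when edgeR's quasi-likelihood test gave a Benjamini-Hochberg adjusted p under 0.05 over 14432 genes. By that rule 18.7% of all tested genes were called lower and 22.4% higher, so 3 lower and 0 higher of 8 tested members stand against a background in which falls were common. On the CPM scale the groups did not overlap in the same 3 members and in no other tested one; of all tested genes, 25.3% had every Wnt1 library below every control library and 28.2% every one above.

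Expected counts summed to between 23585040 and 27218091 per library with the Wnt1 plasmid and between 24753191 and 26072455 in control libraries. Wnt1 itself had 0, 1 and 0 reads with the Wnt1 plasmid and 0 in each control library, so it does not check the labels. Wnt1 replicate 3 and control replicate 3 stood apart from the other libraries, with scores of -50.1 and -29.0 on the second principal component, where the other 4 lay between 16.2 and 22.1. Results that rest on these libraries are given with and without them. Over all tested genes the median change (log2) was 0.05 under TMM factors and 0.47 under library totals, so a member's change is read against that shift. All 12 proximal tubule markers, a check of the tissue, were detected well enough to be tested, with a summed level of 5184 to 6220 CPM with the Wnt1 plasmid and of 19230 to 20094 CPM in control libraries.

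The stretch around the transcription start is shown for Ace and Mas1, which fell, for Ren1, the only member with a TCF/LEF match, and for Agt, which stayed near its control level. TCF/LEF factors are the DNA-binding partners of beta-catenin. Sequences are from RefSeq (GRCm38.p6), 250 bases before to 50 after the start, 5′ to 3′ on the gene's strand, and capitals mark the motif matches.
Ace, chr11:105967698-105967997, plus strand: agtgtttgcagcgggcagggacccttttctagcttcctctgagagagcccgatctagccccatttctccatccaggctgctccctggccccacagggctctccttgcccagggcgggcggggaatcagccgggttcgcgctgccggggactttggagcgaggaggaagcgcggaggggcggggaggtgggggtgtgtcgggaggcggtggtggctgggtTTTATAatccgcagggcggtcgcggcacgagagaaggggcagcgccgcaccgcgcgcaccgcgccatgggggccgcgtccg
Mas1, chr17:12868094-12868393, minus strand: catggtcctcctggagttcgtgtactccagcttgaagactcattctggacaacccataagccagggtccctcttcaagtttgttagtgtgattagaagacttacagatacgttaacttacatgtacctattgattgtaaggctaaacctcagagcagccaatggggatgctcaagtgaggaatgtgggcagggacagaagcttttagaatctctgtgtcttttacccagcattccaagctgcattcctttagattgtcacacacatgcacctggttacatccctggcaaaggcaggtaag
Ren1, chr1:133350424-133350723, plus strand: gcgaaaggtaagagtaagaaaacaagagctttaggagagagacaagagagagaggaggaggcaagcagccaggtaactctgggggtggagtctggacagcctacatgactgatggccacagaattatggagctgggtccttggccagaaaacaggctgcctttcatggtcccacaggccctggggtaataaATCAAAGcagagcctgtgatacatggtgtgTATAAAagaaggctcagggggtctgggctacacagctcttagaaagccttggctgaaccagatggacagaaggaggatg
Agt, chr8:124569657-124569956, minus strand: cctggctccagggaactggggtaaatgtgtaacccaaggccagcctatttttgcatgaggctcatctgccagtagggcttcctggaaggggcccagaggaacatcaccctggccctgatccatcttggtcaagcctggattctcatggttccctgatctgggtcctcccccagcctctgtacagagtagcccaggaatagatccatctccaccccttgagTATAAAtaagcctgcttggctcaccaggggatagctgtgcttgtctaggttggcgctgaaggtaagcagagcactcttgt
The motifs searched on both strands were the TCF/LEF cores CTTTGAT and CTTTGTT, the HNF1 half-site GTTAAT, the TATA box TATAAA, the CRE TGACGTCA and the AP-1 site TGANTCA. The first of these, CTTTGAT, occurred in the Ren1 window, on the reverse strand from position -59 relative to the start, and in no other member's window; 3.73% of 32851 such windows in the genome hold it. CTTTGTT, held by 5.85% of windows, occurred in none. TATAAA, held by 13.6% of windows, lay at -30 in Agt, at -29 in Ren1 and, on the reverse strand, at -31 in Ace, while the Mas1 window held none of the motifs. TATAAA also matched in Agtr1b and Enpep, the AP-1 motif (7.81% of windows) in Mme, and GTTAAT (7.10%) and TGACGTCA (1.79%) in none. Windows were matched for 8 members, 11 in all since some genes have several starts, and not for Agtr1a. A match describes the letters and does not show binding.

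**Figure D1:**
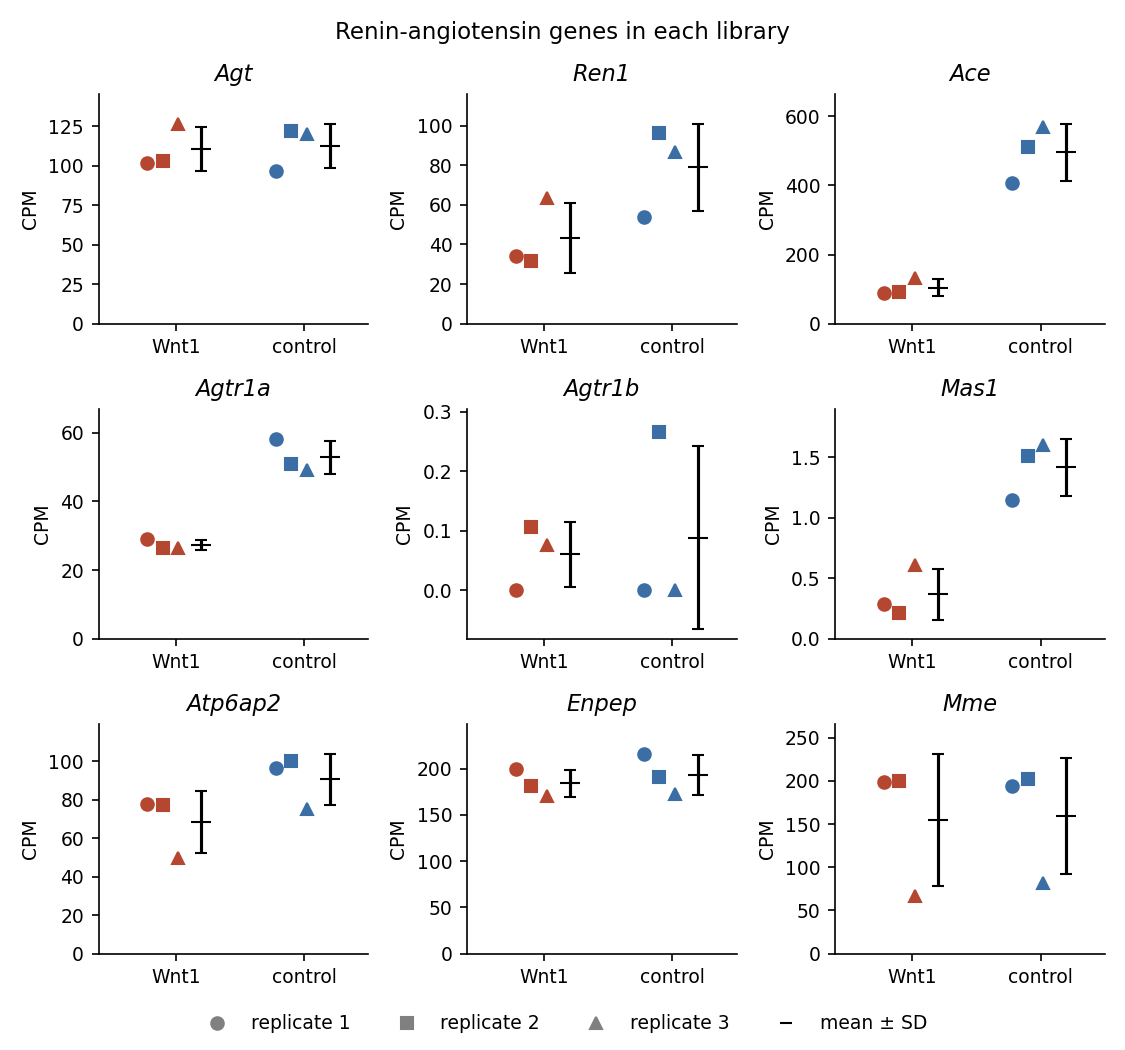
Level of each member in CPM (TMM scale) in the 3 Wnt1 libraries (left) and the 3 control libraries (right), with the mean ± SD beside the points. For Ace, Agtr1a and Mas1 the groups do not overlap, and for Mme replicate 3 is low in both groups.

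Agt (ENSMUSG00000031980) encodes angiotensinogen, the only precursor of the angiotensins. It lies on chromosome 8, 124556534 to 124569706, in the genome build GRCm38, as do the positions given for the other members. Agt stood at 102, 103 and 127 CPM with the Wnt1 plasmid, against 96.6, 122 and 119.8 CPM in control libraries. The groups overlap, and the log2 fold change was -0.03 ± 0.15 (standard error; edgeR adjusted p = 0.897). Under library totals Agt was called higher, at 0.39 (adjusted p = 0.0384), below the shift of 0.47 that this scaling gives to all genes. Liver is the main source of circulating angiotensinogen, and the hepatocyte markers summed to 159 to 372 CPM with the Wnt1 plasmid and to 1405 to 2116 CPM in control libraries, most of it Cyp2e1 (191 ± 75.8 CPM with the Wnt1 plasmid and 1525 ± 398 CPM in control libraries; SD, n = 3 each), which kidney also expresses. Of the 8 hepatocyte markers 7 were tested, with 1 higher and 5 lower, where 22.4% of all tested genes were higher and 18.7% lower. Albumin, Alb, stood at 1.47 ± 0.716 CPM with the Wnt1 plasmid and 9.39 ± 1.55 CPM in control libraries, well under Agt. The part of these markers in the Agt level was not tested.

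Ren1 encodes renin, the aspartic protease whose release by juxtaglomerular cells sets the pace of the system (ENSMUSG00000070645, chromosome 1, 133350510 to 133360325). It was measured at 34.3, 31.7 and 63.4 CPM with the Wnt1 plasmid, against 53.98, 96.3 and 86.5 CPM in control libraries. Wnt1 replicates 1 and 2 lay under every control library, and Wnt1 replicate 3 lay above control replicate 1. Some mouse strains carry Ren2, a near-identical copy whose reads would fall on Ren1; it has no entry in the annotation used here. For Ren1 the log2 fold change was -0.87 ± 0.32 (edgeR adjusted p = 0.0616), which did not pass. Without both libraries numbered 3 it was -1.19 (adjusted p = 0.0205), without Wnt1 replicate 3 -1.26 (0.00546), without control replicate 1 -1.04 (0.0334), and DESeq2 gave -0.91 (0.00935). Under library totals it was -0.46 (adjusted p = 0.234). Over all 18 alternatives, 6 of which called it lower, its adjusted p ranged between 0.00318 and 0.265.

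Atp6ap2 encodes the (pro)renin receptor, which is also an accessory subunit of the vacuolar proton pump (ENSMUSG00000031007, chromosome X, 12587801 to 12617049). Its levels were 77.8, 77.2 and 49.8 CPM with the Wnt1 plasmid, against 96.5, 99.9 and 75.3 CPM in control libraries. In both groups replicate 3 was the lowest library, and control replicate 3 fell below Wnt1 replicates 1 and 2, so the groups overlap. The change of Atp6ap2 on the log2 scale was -0.41 ± 0.20 (edgeR adjusted p = 0.149). Without both libraries numbered 3 it was -0.35 (adjusted p = 0.00485), with an offset for GC content -0.63 (0.00095), and under library totals 0.02 (0.95). Of the 17 other proton pump subunits, all tested, 8 were called lower and 0 higher, with a median of -0.35. Library totals gave 2 lower, and the fit that leaves out both libraries numbered 3 gave 14 lower with 1 higher. The shares of all tested genes called lower in these fits were 18.7%, 8.92% and 30.4%, in that order. The count of subunits lower was 4 without Wnt1 replicate 2, 5 without any one control library and 13 without Wnt1 replicate 3. Atp6v1b2 (log2 fold change -0.90 ± 0.15; edgeR adjusted p = 0.00213), Atp6v0a4 (-0.81 ± 0.15; 0.00345) and Atp6v1b1 (-0.61 ± 0.13; 0.00708) had the smallest p among them.

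Ace encodes angiotensin-converting enzyme, a zinc peptidase with a pair of catalytic domains that makes angiotensin II and degrades bradykinin (ENSMUSG00000020681, chromosome 11, 105967945 to 105989964). Ace was measured at 88.0, 90.9 and 132 CPM with the Wnt1 plasmid, against 406, 513 and 569.9 CPM in control libraries. The highest Wnt1 library lay far below the lowest control library. For Ace the log2 fold change was -2.26 ± 0.21 (edgeR adjusted p = 0.000157), with means of 104 ± 24.5 CPM with the Wnt1 plasmid and 496 ± 83.2 CPM in control libraries (SD, n = 3 each). It was called lower in all 18 alternatives run, at -1.80 to -2.47. In bulk tissue, fewer cells of a type and less RNA per cell cannot be told apart. Of 12 proximal tubule markers, 11 were called lower and 0 higher (median -1.44), among them Slc34a1, a phosphate transporter (-2.43 ± 0.22; edgeR adjusted p = 0.000136). Endothelium also carries converting enzyme, and 5 of 8 endothelial markers were called lower and 0 higher, with 466.5 to 674 CPM in sum with the Wnt1 plasmid and 769.7 to 955 CPM in control libraries (1 lower under library totals, 8 without Wnt1 replicate 3 or without both libraries numbered 3, and 3 without Wnt1 replicate 1 or 2 or control replicate 1 or 3). Of all tested genes 18.7% were called lower under TMM factors, 8.92% under library totals and 30.4% without both libraries numbered 3. The part of either cell type in the Ace result was not tested.

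Enpep encodes glutamyl aminopeptidase, which cuts angiotensin II to angiotensin III (ENSMUSG00000028024, chromosome 3, 129269175 to 129332720). It was measured at 199.8, 182 and 171 CPM with the Wnt1 plasmid, against 216, 191 and 173 CPM in control libraries. The groups overlap almost completely, and the log2 fold change was -0.07 ± 0.13 (edgeR adjusted p = 0.711). Under library totals it was 0.35 (adjusted p = 0.0612), and Enpep was called in none of 18 alternatives (adjusted p 0.058 to 0.994).

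Mme encodes neprilysin, a membrane peptidase that forms angiotensin-(1-7) from angiotensin I and also breaks down natriuretic peptides (ENSMUSG00000027820, chromosome 3, 63241537 to 63386030). Mme stood at 199, 199.8 and 67.0 CPM with the Wnt1 plasmid, against 194, 202 and 82.0 CPM in control libraries. Replicates 1 and 2 were alike in both groups and replicate 3 was low in both. The log2 fold change was -0.04 ± 0.47 (edgeR adjusted p = 0.958), and 0.0049 ± 0.081 (adjusted p = 0.961) without both libraries numbered 3, where its standard error was much smaller. In humans, neutrophils and B cell precursors also carry neprilysin. Neutrophil markers summed to 13.0 to 18.3 CPM with the Wnt1 plasmid and 1.152 to 1.52 CPM in control libraries (4 of 4 tested of 7 named called higher). Of the 4, S100a8, S100a9 and Cxcr2 had at most 5 reads in any control library. They passed the low-count filter only through the Wnt1 libraries, so their higher calls were close to fixed by the filter. Ly6g, Mpo and Elane had at most 1 read in any library and were not tested. B cell markers summed to 3.08 to 4.29 CPM with the Wnt1 plasmid and 2.07 to 3.56 CPM in control libraries (1 of 2 tested of 6 named called higher, Cd79b). The precursor markers Vpreb1 and Igll1 were too low to test. Vpreb1 had 3, 3 and 5 reads with the Wnt1 plasmid, against 9, 18 and 21 in control libraries, and Igll1 2, 0 and 0 against 0, 5 and 1. The part of neutrophils and B cells in the Mme level was not tested.

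Most of the other brush border enzymes listed here gave a different picture from Enpep and Mme in their own values. Of 11 brush border hydrolases fixed as a list, all tested, 9 were called lower and 0 higher, where 18.7% of all tested genes were lower. Their median log2 fold change was -1.71, against 0.05 for all tested genes. Under library totals 7 were lower, against 8.92% of all genes. Mep1b, a meprin subunit, was measured at 28.5 ± 8.31 CPM with the Wnt1 plasmid and 266 ± 44.5 CPM in control libraries (log2 fold change -3.22 ± 0.25; edgeR adjusted p = 9.59e-05). Cltrn, the converting-enzyme homologue collectrin (-1.71 ± 0.17; 0.000209), and Mep1a, the other meprin subunit (-1.74 ± 0.18; 0.000225), followed. The 2 that were not called, named here after their values were seen, were Dpp4 (0.09; adjusted p = 0.86) and Folh1 (-0.39; adjusted p = 0.529).

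Agtr1a encodes the AT1a receptor, through which angiotensin II constricts vessels and raises tubular sodium uptake (ENSMUSG00000049115, chromosome 13, 30336441 to 30382867). It was measured at 29.0, 26.3 and 26.4 CPM with the Wnt1 plasmid, against 58.3, 51.0 and 49.2 CPM in control libraries. The groups lay far apart and varied little, with means of 27.2 ± 1.51 CPM with the Wnt1 plasmid and 52.8 ± 4.83 CPM in control libraries (SD, n = 3 each). The log2 fold change was -0.96 ± 0.13 (edgeR adjusted p = 0.000823), and it was called lower in all 18 alternatives run, at -0.48 to -1.0. On the FPKM scale, which has no composition factor, limma gave -0.48 on log2(FPKM + 1) (adjusted p = 0.0156), where the median of all genes was 0.36.

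Agtr1b encodes the AT1b receptor, in mice best known from the adrenal gland (ENSMUSG00000054988, chromosome 3, 20314473 to 20367177). It had 0, 3 and 2 reads with the Wnt1 plasmid, against 0, 6 and 0 reads in control libraries, and was too low to test. The limit that a count of 0 allows, 3 counts, corresponds to 0.0951 to 0.114 CPM with the Wnt1 plasmid and to 0.133 to 0.138 CPM in control libraries, for counting error only. The longest open reading frames of Agtr1a and Agtr1b, 1080 bases each, are 90.8% identical, and the longest identical run in the alignment is 66 bases. Of 2136 stretches of 50 bases in Agtr1b transcripts, 33 (1.54%) also occur in Agtr1a. Reads from those stretches could be counted for either gene, so the few Agtr1b reads are uncertain. Adrenal cortex markers gave 3.26 to 3.89 CPM in sum with the Wnt1 plasmid and 2.92 to 3.28 CPM in control libraries. Of the 7, Cyp11b2 and Cyp21a1 had no read in any library, and 2 were tested. Mc2r, the corticotropin receptor, was called higher (log2 fold change 4.25 ± 0.61, edgeR adjusted p = 0.00095), on 31, 29 and 22 reads with the Wnt1 plasmid against 1, 0 and 2 in control libraries. With so few control reads it passed the low-count filter only through the Wnt1 libraries, so a higher call was close to fixed by the filter. Star, which made up most of the sum, was not called (-0.20 ± 0.21, edgeR adjusted p = 0.505).

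Mas1 encodes the receptor for angiotensin-(1-7), whose effects oppose those of AT1 (ENSMUSG00000068037, chromosome 17, 12841079 to 12868143). It had 9, 6 and 16 reads with the Wnt1 plasmid, against 25, 34 and 35 reads in control libraries, which is 0.285, 0.212 and 0.607 CPM with the Wnt1 plasmid against 1.149, 1.51 and 1.598 CPM in control libraries. All Wnt1 libraries were below all control libraries, at a low level throughout. The log2 fold change was -1.95 ± 0.42 (edgeR adjusted p = 0.0073). Mas1 was called lower in all 16 alternatives that tested it, at -0.53 (log2(FPKM + 1), no filter, where the pseudocount shrinks changes of low genes) to -2.48; without Wnt1 replicate 3 the change was -2.48, and with either other Wnt1 library left out it was -1.79 or -1.68. The gene overlaps the antisense transcript Airn over 19058 bases, and Ace overlaps the antisense gene Gm11651 over 17750 bases. Neither antisense gene is a row of the table, and the sources used here do not say whether counting used strand, so reads of the 2 strands cannot be told apart.

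Levels of different genes were compared per transcript length, in FPKM. With the Wnt1 plasmid the order was Agt (67.4 ± 6.53 FPKM), Enpep (51.6 ± 5.19), Mme (40.3 ± 21.2), Atp6ap2 (34.1 ± 8.81), Ren1 (31.1 ± 11.6), Ace (26.7 ± 5.53), Agtr1a (14.9 ± 1.35), Mas1 (0.271 ± 0.225) and Agtr1b (0.0433 ± 0.0397). In control libraries the order was Ace (95.0 ± 15.2 FPKM), Agt (51.4 ± 5.76), Ren1 (42.8 ± 11.7), Enpep (40.1 ± 5.36), Atp6ap2 (33.7 ± 5.42), Mme (27.5 ± 12.03), Agtr1a (21.1 ± 2.44), Mas1 (0.83 ± 0.191) and Agtr1b (0.047 ± 0.0814), all as mean ± SD of 3 libraries. Ace was thus the most abundant member in control libraries and the sixth with the Wnt1 plasmid. With the Wnt1 plasmid, Agt and Enpep did not overlap, nor did Ace and Agtr1a, whereas each pair of neighbours between Enpep and Ace overlapped. In control libraries Ace and Agt did not overlap, and each pair of neighbours from Agt to Agtr1a did. Agtr1a, Mas1 and Agtr1b were apart from each other in both groups. Between the groups, FPKM values, which hold no composition factor, did not overlap for Ace, Agtr1a and Mas1, lower with the Wnt1 plasmid. Nor did they for Agt and Enpep, which were higher, though both overlapped in CPM. The share of all genes apart in FPKM was not computed. With limma on log2(FPKM + 1), 9.89% of all genes were called lower and 41.1% higher, and the median change was 0.36. Agt stood at 62.4 to 74.8 FPKM with the Wnt1 plasmid, against 44.9 to 55.7 FPKM in control libraries, and Enpep at 46.0 to 56.3 FPKM with the Wnt1 plasmid, against 35.1 to 45.7 FPKM in control libraries.

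Ratios of FPKM values within a library do not depend on how libraries are scaled. The ratio of Ace to Enpep was 0.403, 0.465 and 0.717 with the Wnt1 plasmid, against 1.70, 2.53 and 3.05 in control libraries. Ace, carried by the same brush border, was below Enpep in every Wnt1 library and above it in every control library. The ratio of renin to its substrate, Ren1 to Agt, was 0.40, 0.366 and 0.595 with the Wnt1 plasmid, against 0.664, 0.940 and 0.858 in control libraries. The ratio of Agtr1a to Agt was 0.258, 0.233 and 0.179 with the Wnt1 plasmid, against 0.532, 0.366 and 0.357 in control libraries. The ratio of Ace to Mme, the neprilysin gene, was 0.415, 0.484 and 2.07 with the Wnt1 plasmid, against 2.25, 2.91 and 7.83 in control libraries, with replicate 3 the highest of both groups. None of these 4 ratios overlapped between the groups, and no test was made on them, since an exact test of 3 against 3 libraries cannot go below p = 0.1. The share of gene pairs whose ratio is apart in this way was not computed. Ace and Agtr1a, the numerators of all but Ren1 to Agt, were already apart in FPKM, so those ratios partly repeat their falls. Agt and Enpep, the denominators of all but Ace to Mme, were also apart in FPKM, higher with the Wnt1 plasmid. Ren1 itself overlapped in FPKM (23.8 to 44.5 with the Wnt1 plasmid against 29.8 to 52.4 in control libraries). Its ratio to Agt is therefore not separate from the Agt difference on that scale. The ratio of Agtr1a to Mas1 did overlap, at 89.8, 141 and 25.4 with the Wnt1 plasmid against 38.7, 20.8 and 21.5 in control libraries. So did that of Enpep to Agt, at 0.901, 0.806 and 0.615 with the Wnt1 plasmid against 1.02, 0.71 and 0.653 in control libraries.

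**Figure D2:**
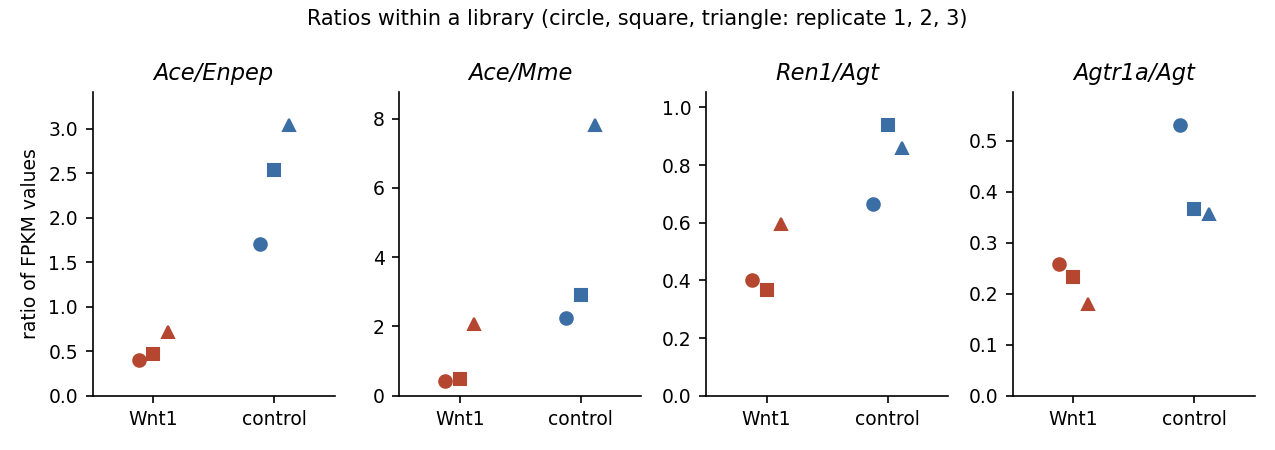
Ratios of FPKM values of 2 genes within each library, Wnt1 libraries left and control libraries right, with 1 symbol per replicate. All 4 ratios are lower in every Wnt1 library than in any control library, Ace to Enpep at 0.403 to 0.717 against 1.70 to 3.05. The ratios of Agtr1a to Mas1 and of Enpep to Agt, which overlap between the groups, are not drawn.

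In both groups the 4 members with the least GC were lower in replicate 3 than in replicates 1 and 2, and the other 4 tested members were higher. Mme, with 38.0% GC in its longest transcript, was lower in replicate 3 than in the mean of replicates 1 and 2 by a log2 difference of -1.57 with the Wnt1 plasmid and -1.27 in control libraries. Atp6ap2, with 40.5% GC, gave -0.64 and -0.38, and Enpep and Agtr1a, with 45.5% and 46.5%, lay between -0.06 and -0.23 in both groups. Mas1 (49.7% GC), Ren1 (54.6%), Ace (55.6%) and Agt (56.3%) were higher in replicate 3, by 1.07, 0.94, 0.56 and 0.31 with the Wnt1 plasmid and by 0.26, 0.26, 0.32 and 0.14 in control libraries. Over 14416 tested genes with a transcript sequence, the median difference was -0.96 with the Wnt1 plasmid and -0.65 in control libraries for the 1716 genes under 42% GC, and 0.41 and 0.12 for the 4042 genes at 54% or more. Among all genes, too, low GC content went with lower values in replicate 3 of both groups.

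**Figure D3:**
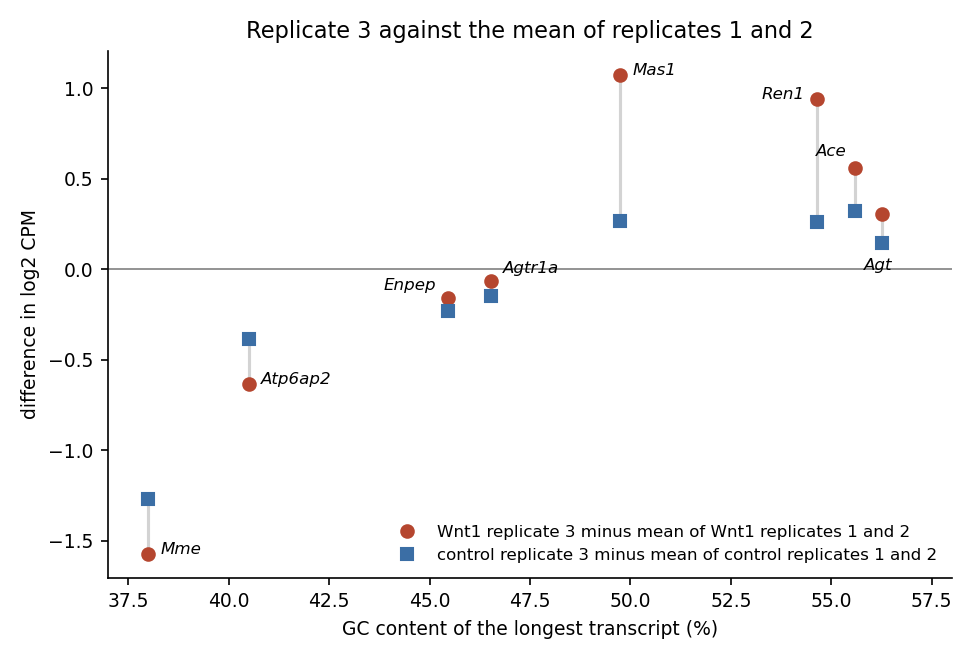
Difference in log2 CPM between replicate 3 and the mean of replicates 1 and 2 of the same group (vertical axis) against the GC content of each tested member's longest transcript (horizontal axis), for Wnt1 (circles) and control libraries (squares). Mme at 38.0% GC lies at -1.57 and -1.27, and Mas1, Ren1, Ace and Agt, the 4 with the most GC, lie above 0 in both groups.

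With an offset for GC content fitted in each library, 5 members were called lower and 0 higher, against 24.1% lower and 28.0% higher among all tested genes. Leaving out both libraries numbered 3 also gave 5 lower and 0 higher, against 30.4% lower and 32.0% higher among all genes. Voom with library weights gave the same 5 and 0, against 30.7% lower and 32.0% higher. Fits with no composition factor went the other way among all genes: library totals called 8.92% lower and 44.0% higher, and 3 members lower and 1, Agt, higher. limma on log2(FPKM + 1) called 9.89% lower and 41.1% higher, on log2(FPKM + 0.1) 9.86% and 41.0%, with Ace and Agtr1a lower and Agt higher in both. Without a minimum FPKM it called 7.07% lower and 33.1% higher, with Ace, Agtr1a and Mas1 lower and Agt higher. In each of the first 3 fits the 5 were Ace, Agtr1a, Mas1, Ren1 and Atp6ap2. Standard errors were smaller than in the fit of all 6 libraries under TMM factors for Ace (0.11 with the GC offset against 0.21) and for Mme (0.19 against 0.47). Mme stayed uncalled with the offset, at -0.41 (edgeR adjusted p = 0.114).

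**Figure D4:**
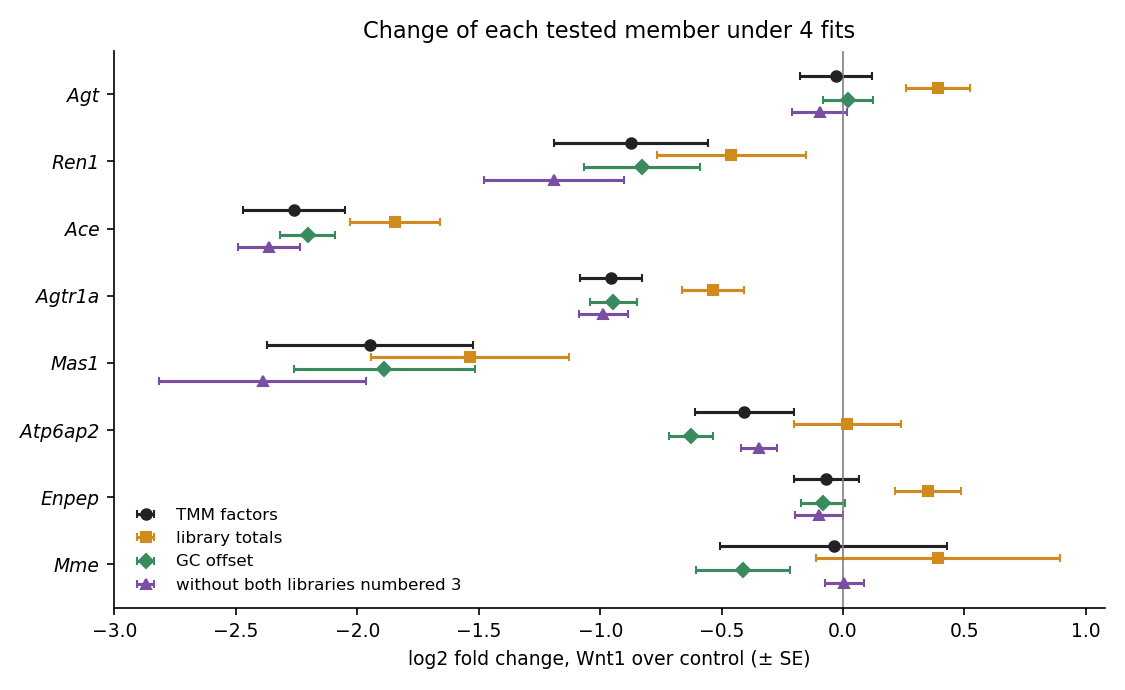
Log2 fold change ± SE of the 8 tested members, Wnt1 over control, under TMM factors, library totals, an offset for GC content, and with the 2 libraries numbered 3 left out. Ace, Agtr1a and Mas1 lie below 0 under all 4, while Agt and Enpep lie near 0 except under library totals (0.39 and 0.35).

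Other genes that handle angiotensins were mixed. Of 19 listed, 13 were tested, with 5 called lower, 1 higher and a median log2 fold change of -0.11. Among all tested genes 18.7% were lower and 22.4% higher. Under library totals 1 listed gene was lower (Klk1) and 5 higher, where 8.92% of all genes were lower and 44.0% higher. The 5 were Arap1, Prep, Thop1, Dpp3 and Rnpep, of which all but Arap1 are named after their values were seen. Klk1, tissue kallikrein, which releases bradykinin and belongs to a family of near-identical copies that may share reads, was measured at 1095 ± 395 CPM with the Wnt1 plasmid and 3285 ± 266 CPM in control libraries (-1.58 ± 0.27; edgeR adjusted p = 0.00278). Agtrap, a protein that promotes uptake of the AT1 receptor from the cell surface, was lower (-0.68 ± 0.13; 0.00357; -0.26 and not called under library totals). Arap1, a GTPase-activating protein also described as a partner of the AT1 receptor, was higher, at 99.3 ± 15.4 CPM with the Wnt1 plasmid against 50.3 ± 2.82 CPM in control libraries (0.98 ± 0.15; 0.00132), and was called in all 18 alternatives. Anpep, the aminopeptidase that acts on angiotensin III (-0.75 ± 0.15; 0.00469), and Ctsa, cathepsin A (-0.69 ± 0.17; 0.0135), were lower, and neither was called under library totals (-0.33 and -0.27).

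Agtr2, the AT2 receptor, had 1 read in each Wnt1 library and 2, 2 and 1 reads in control libraries. The peptidases Ctsg, Cma1, Mcpt4 and Cpa3 and the receptor Mrgprd were also too low to test. Mast cell markers, which include Cma1, Mcpt4 and Cpa3, summed to 24.4 to 28.3 CPM with the Wnt1 plasmid and 27.8 to 31.7 CPM in control libraries. Most of it was Kit, the only 1 of 7 tested, so the sum says little about the others. Tpsb2 had 5, 6 and 7 reads with the Wnt1 plasmid and 0 in each control library, and Cpa3 4, 2 and 2 against 0, 1 and 1. Mcpt4, Cma1, Tpsab1 and Fcer1a had at most 2 reads in any library. Of 38 genes that carry the renin-angiotensin term in the authors' table, a set read from the table itself, 24 were tested. Of the 24, 7 were called lower and 0 higher, and without the members it was 4 lower of 16. The shares of all tested genes were 18.7% lower and 22.4% higher.

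Of 15 signalling partners of the AT1 receptor, all tested, 5 were called higher and 0 lower, with a median of 0.30, where 22.4% of all tested genes were higher and 18.7% lower. The count higher was 3 without Wnt1 replicate 1, Wnt1 replicate 2, control replicate 1 or control replicate 3. It was 8 with 0 lower under library totals, where 44.0% of all genes were higher, and 9 with 3 lower without replicate 3 of both groups. Arrb2, an arrestin that desensitises and internalises receptors, was measured at 27.6 ± 1.94 CPM with the Wnt1 plasmid and 10.2 ± 1.19 CPM in control libraries (1.43 ± 0.15; edgeR adjusted p = 0.000262). Cybb, the phagocyte NADPH oxidase subunit, rose by 2.92 ± 0.32 (0.000382), and Grk5, a receptor kinase, by 0.96 ± 0.15 (0.0017). Macrophage markers, whose cells make Cybb, were called higher for 8 of 8 and summed to 1542 to 1852 CPM with the Wnt1 plasmid and 201 to 239.97 CPM in control libraries. Fibroblast markers were higher for 7 of 7, at 1781 to 2957 CPM in sum with the Wnt1 plasmid and 380 to 505 CPM in control libraries. The part of these cells in the list's values was not tested.

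Of 19 genes of renin cells and the macula densa, 18 were tested, with 6 called higher and 3 lower and a median of 0.01, shares not far from the 22.4% higher and 18.7% lower among all tested genes. Ptger4, a prostaglandin receptor of renin cells, stood at 14.5 ± 3.54 CPM with the Wnt1 plasmid and 4.23 ± 0.42 CPM in control libraries (log2 fold change 1.78 ± 0.22; edgeR adjusted p = 0.000532). Gucy1a1, a subunit of the nitric oxide receptor, rose by 2.03 ± 0.31 (0.00159), and Prkg2, a cyclic GMP-dependent kinase that restrains renin release, by 2.32 ± 0.44 (0.00385), the last at 1.75 ± 0.754 CPM with the Wnt1 plasmid against 0.348 ± 0.0573 CPM in control libraries. The 3 called lower, named after their values were seen, were Gja4, a connexin (-0.65; adjusted p = 0.0341), Adrb1, the adrenergic receptor that triggers renin release (-0.86; 0.0431), and Gnas, its G protein (-0.39; 0.0435). None of the list was lower under library totals, with upper-quartile factors, on the FPKM scales, or without any one of Wnt1 replicates 1 and 2 and the 3 control libraries; without Wnt1 replicate 3, 5 were. Smooth muscle, mesangial and pericyte markers, of cells related to renin cells, were called higher for 5 and lower for 1 of 8. The count lower was 0 under library totals and without Wnt1 replicate 1 or 2 or control replicate 1 or 2. They summed to 449 to 662 CPM with the Wnt1 plasmid and 236 to 272 CPM in control libraries. Tagln was higher (1.99 ± 0.18, edgeR adjusted p = 0.000158). Named after their values were seen, Myh11 was lower (-0.44 ± 0.14, 0.0386) and Cnn1 and Itga8 were not called. Podocyte markers, the glomerular neighbours, gave 1 higher and 3 lower of 7 (1 lower under library totals, with upper-quartile factors and without any one library but Wnt1 replicate 3), with 547.6 to 649.7 CPM in sum with the Wnt1 plasmid against 680.5 to 741 CPM in control libraries.

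**Figure D5:**
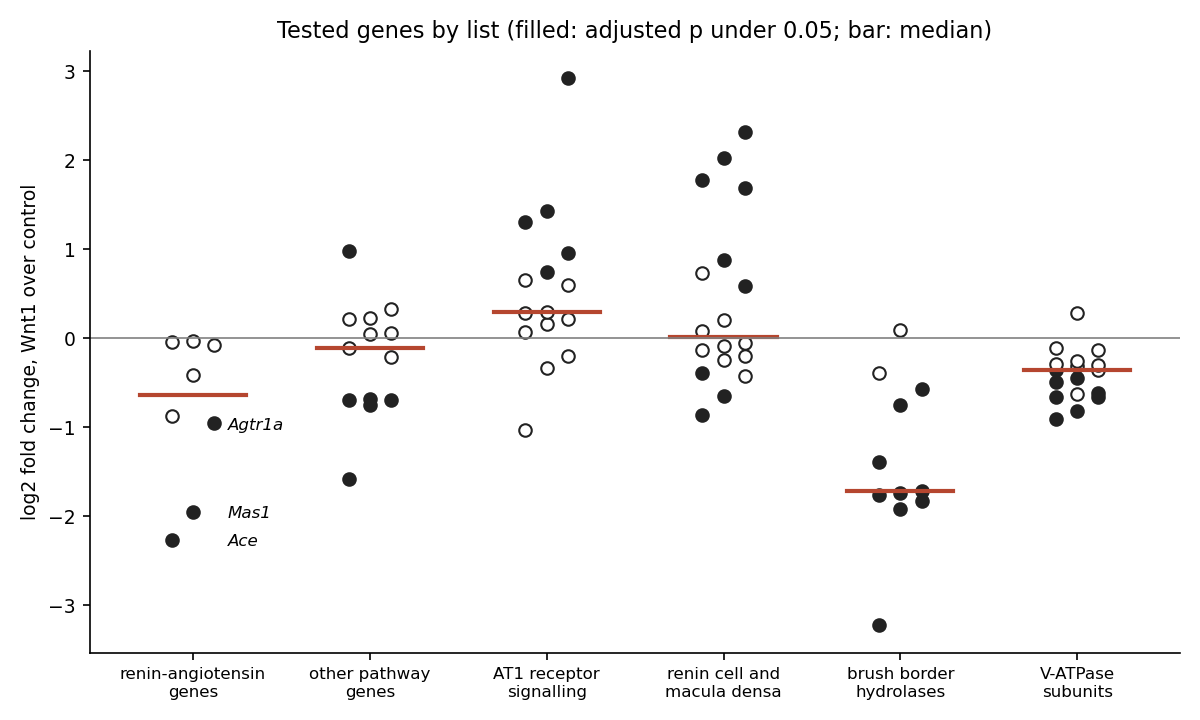
Log2 fold change, Wnt1 over control, of each tested gene in the renin-angiotensin genes and 5 related lists, with filled points for an adjusted p under 0.05 and a bar at each list's median. The medians are -0.64 for the renin-angiotensin genes, -0.11 for other pathway genes, 0.30 for AT1 receptor signalling, 0.01 for renin cell and macula densa genes, -1.71 for brush border hydrolases and -0.35 for V-ATPase subunits.

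The genes most like each called member in profile were found by the root mean square difference of log2 CPM, centred on each gene's mean, over the 6 libraries and about 12114 genes. For Ace they were Car4 (0.0833), Cryzl2 (0.103) and Proc (0.128), for Agtr1a Abcg2 (0.0403), Sfxn2 (0.0411) and P3h2 (0.0486), and for Mas1 Snx31 (0.16), Rdh5 (0.162) and Bdh1 (0.168). Car4, a membrane carbonic anhydrase, had a log2 fold change of -2.26, as did Ace, and Abcg2, an efflux transporter, had -0.90. These genes were picked for closeness over the same 6 libraries, so a like fold change follows from the selection and is no separate result. The differences for Mas1 were larger than for Agtr1a, in a gene with at most 35 reads per library.

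A mean transcript length, computed from the authors' counts and FPKM, is 1 average per gene and library over the transcripts estimated. It was 1891 bases for Agt, 1592 for Ren1 and 2324 for Atp6ap2 in all 6 libraries, the length of the longest annotated transcript. For Ace it lay between 4429 and 4577 bases in all libraries, against annotated coding transcripts of 2418 to 4906 bases. For Mme it was 4214, 4738 and 4690 bases with the Wnt1 plasmid, against 4941, 5074 and 5093 bases in control libraries. The mean length for Mme, whose annotated coding forms run between 569 and 8039 bases, was thus shorter in every Wnt1 library than in any control library. So was that of Enpep, by less, at 4116, 4141 and 4152 bases with the Wnt1 plasmid, against 4157, 4172 and 4181 bases in control libraries. The share of all genes whose mean length is apart between the groups was not computed. For Mas1 the length varied between 1285 and 2370 bases with the Wnt1 plasmid and between 1328 and 1640 bases in control libraries, on 6 to 35 reads per library.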

How the data were processed

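Polyadenylated RNA of mouse kidney was sequenced in 6 libraries on an Illumina NovaSeq instrument, per the labels' protocols. Per the submitters' processing notes, the tools were RSEM, HISAT2, StringTie 1.3.1, Bowtie2 2.2.8 and fastp 0.18.0, and the build was mm10. The role of each tool, the annotation and the use of strand: not given in the sources used here. Expected counts and FPKM values per gene were deposited by the authors. Expected counts were rounded for testing, since 9.02% of the deposited ones lay over 1e-06 from a whole number. All 9 members matched GENCODE M21 (GRCm38).

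Counts were tested in R 4.3.3 with edgeR 4.0.16 (filterByExpr, TMM, robust quasi-likelihood test, two-sided, Benjamini-Hochberg over 14432 genes), after a check on simulated data. Standard errors derive from the unshrunken coefficient and the F statistic, so they hold nothing independent of the p-value. Replicates carry the numbers 1 to 3 in record order, which name a library only. The 18 alternatives were other scalings and filters, DESeq2 1.42.0, limma 3.58.1 on log2(FPKM + 1) or log2(FPKM + 0.1) (minimum FPKM of 1 in 3 libraries, or no filter), voom, a GC offset (lowess, span 0.3), and leaving out libraries. Named genes were all members, all called genes of the pathway list with Agtr2, up to 3 called genes with the smallest p of each other list, and the 3 genes nearest each called member (mean FPKM of at least 1, no predicted genes); some of these are not reported here. Members and lists were chosen with earlier results of these data known.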

Additional observations from a re-analysis of the deposited data

How the results depend on the processing

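No paired analysis was possible because the libraries' titles share fewer than 2 numbers between the groups and no label ties libraries together. Ace and Agtr1a were called lower in all 18 alternatives and Mas1 in the 16 that tested it; Mas1 was filtered out of log2(FPKM + 1) and log2(FPKM + 0.1) with a minimum. The members called lower numbered 5 with voom, the GC offset or both libraries numbered 3 left out, and 3 to 4 with 1 library left out. The members called higher numbered 1 (Agt) under library totals and the 3 FPKM fits. Over all tested genes 2697 were lower and 3239 higher; lower calls numbered 1288 under library totals, 1238 on log2(FPKM + 1), 1234 on log2(FPKM + 0.1), 1273 on log2(FPKM + 1) with no filter, 4430 with voom, 4432 without both libraries numbered 3, and 1797 (without control replicate 2) to 3977 (without Wnt1 replicate 3) with 1 library left out. Higher calls numbered 6348, 5144, 5139 and 5949 in the first 4 of these, and 2681 to 4165 with 1 library left out. The cause was not tested, except that library totals and FPKM hold no composition factor.

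Members near 0 changed sign. Agt was 0.39 under library totals, 0.39 on each FPKM scale, 0.071 with upper-quartile factors, 0.029 with no filter, 0.022 with the GC offset, and -0.14 to 0.10 with 1 library left out. Atp6ap2 was 0.018 under library totals. Enpep was 0.35 under library totals, 0.36 on the FPKM scales with a pseudocount of 1 and with 0.1, 0.034 with upper-quartile factors, 0.0015 with no filter, and -0.13 to 0.084 with 1 library left out. Mme was 0.39 under library totals, 0.46 and 0.48 on log2(FPKM + 1) and log2(FPKM + 0.1), 0.076 with upper-quartile factors and with voom, 0.063 with no filter, 0.0049 without both libraries numbered 3, and -0.26 to 0.32 with 1 library left out. Mas1, at 6 to 35 reads per library, and Agtr1b are the members whose depth limits what can be said.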
